A study of Rattus norvegicus with 6 samples.

Results

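The genes described here make cholesterol in the liver, sense sterols, move and esterify cholesterol, or carry it out of the cell. The set was chosen by gene name, and 28 of its 29 listed genes were measured among 22093 genes; Hmgcs1 had no single-symbol probe set and was not analysed here. Each gene is read from its brightest single-symbol probe set. The livers came from adult Sprague Dawley rats. In 3 of them (STZ-O) the father had been made hyperglycaemic with streptozotocin, a compound toxic to insulin-producing beta cells, injected into the peritoneum. In the other 3 (CB-O) the father was a control of the citrate buffer group. The offspring received neither agent, all mothers were healthy, and all rats ate regular chow and were killed fed. The fathers model a loss of insulin, not an inherited diabetes, each liver stands for 1 litter, the labels do not separate the sexes, and the offspring's age in days is not stated in the labels.

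Cholesterol is built from acetyl-CoA through mevalonate, isoprenoids, squalene and lanosterol. When membrane sterols are low, SCAP carries the transcription factor SREBP2 (Srebf2) to the Golgi for cleavage, and the released part switches on the synthesis enzymes and its own gene; INSIG proteins hold SCAP back when sterols are plentiful. Excess cholesterol, as oxysterols, activates the liver X receptors (LXR), which switch on exporters and a ligase that removes lipoprotein receptors.

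The 6 arrays resembled each other closely, with Pearson r between 0.991 and 0.994 over the tested probe sets, and their column medians lay between 5.77 and 5.82. All 6 of 6 hepatocyte markers were measured, and Alb, serum albumin, lay between 13.09 and 13.21 on the log2 scale on every array, which fits the labelled tissue. The 6 Kupffer cell and macrophage markers summed to 47.96 to 51.90 in STZ-O livers and 50.15 to 50.79 in CB-O livers (log2 units added over the list). The 7 sinusoidal endothelial markers summed to 55.99 to 58.85 in STZ-O and 58.27 to 59.65 in CB-O livers. STZ-O replicate 3 had the lowest sum of both lists. It was lowest for every marker of both but Marco (7.67) and Clec4g (7.90), which were higher in it than in most livers. Ddx3y, a Y-linked gene, lay between 9.36 and 9.44 in STZ-O livers and between 9.22 and 9.67 in CB-O livers, so the arrays gave no sign of mixed sexes. In bulk liver, fewer cells of a type and less RNA per cell cannot be told apart. Of 8 measured genes that respond to feeding, all 8 had a higher mean in STZ-O than in CB-O livers. G6pc1 lay between 8.45 (CB-O replicate 3) and 10.72 (CB-O replicate 1), and Srebf1 between 8.40 and 8.82. Igfbp1 (8.61) and Pck1 (11.54) were also highest in CB-O replicate 1, while Pklr, Fasn, Acly and Srebf1 were highest in other livers. Pdk4 was 9.13 in STZ-O replicate 3 and 7.62 to 8.002 in the other livers. These 2 livers also stood at the ends for most synthesis enzymes, as given below. Some of the feeding genes thus varied widely though all rats were killed fed, and their part in the results was not tested.

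No gene of the set differed between STZ-O and CB-O livers beyond the spread between animals. Limma called 0 of 28 members at an adjusted p of 0.05, where 0% of all genes were called, and their adjusted p-values ran between 0.955 and 0.999. At an unadjusted p of 0.05 it called 0 of 28, against 5.68% of all genes, and in 0 of 28 did the 3 STZ-O values lie wholly apart from the 3 CB-O values, against 10.1% of all genes. The log2 difference (STZ-O less CB-O) was below 0 for 22 of 28 members, where 51.9% of all genes were below 0. The median difference was -0.03 over the members and -0.0037 over all genes. That lean hangs on 2 animals, since only 8 members were lower once STZ-O replicate 3 was left out, and 10 once CB-O replicate 1 was.

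**Figure D1:**
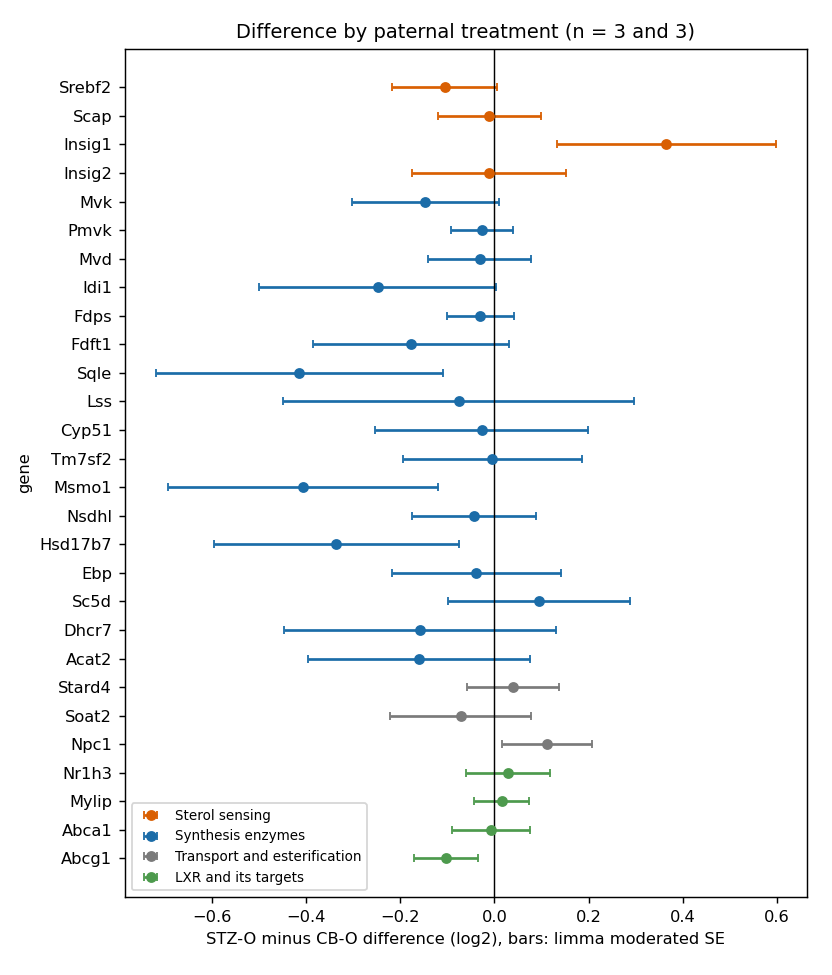
The x axis gives the STZ-O minus CB-O difference in log2 units for each of 28 genes (y axis), with bars of 1 moderated standard error from limma, n = 3 livers in each group. The differences run between -0.41 (Sqle) and 0.37 (Insig1), and none was called.

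Among the sensing genes, Srebf2, which encodes SREBP2, had log2 levels of 8.79, 8.74 and 8.46 in STZ-O livers, against 8.95, 8.73 and 8.63 in CB-O livers. The groups overlapped, with STZ-O replicate 3 lowest and CB-O replicate 1 highest. The difference was -0.11 ± 0.11 (limma moderated SE, adjusted p = 0.988). Scap, its escort, had 8.62, 8.46 and 8.28 in STZ-O livers and 8.65, 8.37 and 8.37 in CB-O livers, a difference of -0.01 ± 0.11, with the same animals at the ends. Insig2, the INSIG form that is not induced through SREBP2, had 9.25, 9.55 and 9.06 in STZ-O livers and 9.27, 9.60 and 9.03 in CB-O livers. Its order of animals was unlike that of Srebf2, with replicate 2 highest in each group, and its difference was -0.01 ± 0.16.

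Insig1, the SREBP2-induced brake on SCAP, had the largest difference above 0 in the set. Its log2 levels were 10.17, 10.08 and 9.34 in STZ-O livers, against 9.84, 9.40 and 9.25 in CB-O livers. STZ-O replicates 1 and 2 stood above every CB-O liver, while STZ-O replicate 3 lay among them. The means were 9.86 ± 0.46 in STZ-O and 9.50 ± 0.31 in CB-O livers (SD, n = 3 each), a difference of 0.37 ± 0.23 that did not pass (limma adjusted p = 0.955). Leaving out STZ-O replicate 3 gave 0.63 and leaving out STZ-O replicate 1 gave 0.21.

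Of the 17 measured synthesis enzymes, 16 had a difference below 0 and 1 above, with a median of -0.08; none passed. Sqle, squalene epoxidase, a rate-limiting step after squalene, had log2 levels of 9.05, 9.02 and 7.94 in STZ-O livers, against 9.49, 8.97 and 8.80 in CB-O livers. STZ-O replicate 3 was well under the other 5 livers, and STZ-O replicates 1 and 2 lay inside the CB-O range. The difference was -0.41 ± 0.31 (limma adjusted p = 0.961), and -0.05 without STZ-O replicate 3.

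Msmo1, the sterol C4 methyl oxidase, had 10.15, 10.23 and 9.16 in STZ-O livers and 10.61, 10.19 and 9.95 in CB-O livers. The pattern was that of Sqle, with a difference of -0.41 ± 0.29 (limma adjusted p = 0.960) that was -0.07 without STZ-O replicate 3. Hsd17b7, which reduces the 3-keto intermediate after demethylation at C4, had 8.53, 8.39 and 7.69 in STZ-O livers and 8.95, 8.57 and 8.10 in CB-O livers. Here too STZ-O replicate 3 was lowest and CB-O replicate 1 highest, and the difference of -0.34 ± 0.26 did not pass (limma adjusted p = 0.961).

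In the steps up to squalene, Acat2, the cytosolic thiolase that forms acetoacetyl-CoA, had 8.16, 8.08 and 7.40 in STZ-O livers and 8.45, 7.91 and 7.76 in CB-O livers. Idi1, which isomerises isopentenyl diphosphate, had 8.95, 9.02 and 8.24 in STZ-O livers and 9.44, 8.88 and 8.64 in CB-O livers. Both had the same lowest and highest liver as Sqle. Fdft1, squalene synthase, had 10.02, 9.95 and 9.36 in STZ-O livers and 10.33, 9.80 and 9.74 in CB-O livers, again with that order at the ends. Mvk, mevalonate kinase, had 8.08, 7.85 and 7.58 in STZ-O livers and 8.26, 7.91 and 7.78 in CB-O livers. The differences of these 4 genes lay between -0.25 ± 0.25 (Idi1) and -0.15 ± 0.16 (Mvk). The next kinase Pmvk, the decarboxylase Mvd and the farnesyl diphosphate synthase Fdps each differed by -0.03. Like Mvk and Acat2, these 3 had means under 8.26, the 95th percentile of the array's negative controls, where changes can be compressed. That mark is not a limit of detection. The negative controls had a median of 5.51, only 2911 of 22093 genes had means above 8.26, and Acat2, under it, spanned 2.08-fold over the 6 livers.

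After squalene, Lss, which closes the sterol ring, had 8.85, 8.002 and 7.84 in STZ-O livers and 9.12, 7.82 and 7.99 in CB-O livers. Replicate 1 of each group stood apart from the other 4 livers, so the spread within groups was wide and the difference of -0.08 ± 0.37 small beside it; the other Lss probe set gave -0.11. Tm7sf2, a sterol C14 reductase, had 8.63, 8.28 and 8.15 in STZ-O livers and 8.77, 8.22 and 8.08 in CB-O livers, also with replicate 1 of each group on top. Dbp, a clock-controlled gene that swings over the day, had 9.22, 8.76 and 8.58 in STZ-O livers and 9.19, 8.73 and 8.60 in CB-O livers. It had the same animals on top, and was picked from 12 measured clock genes after its values were seen. Of the others, only Nr1d1 and Per3 also had replicate 1 on top in each group. Per2, for example, was highest in CB-O replicate 2 (8.67, against 8.51 in CB-O replicate 1). Replicate 1 on top in each group was not particular to Lss and Tm7sf2. It was also seen for the enzymes Mvk, Mvd, Fdps, Fdft1, Sqle, Cyp51, Hsd17b7, Ebp, Dhcr7 and Acat2, though not for Pmvk, Idi1, Msmo1, Nsdhl and Sc5d. Outside synthesis it was seen for Srebf2, Scap, Insig1, Npc1, Stard4 and Abcg1. The part of clock genes in that pattern was not tested.

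Cyp51, the lanosterol demethylase, had 10.35, 10.33 and 9.67 in STZ-O livers and 10.56, 9.95 and 9.91 in CB-O livers, a difference of -0.03 ± 0.23. Dhcr7, the reductase that converts dehydrocholesterol to cholesterol, had 8.64, 8.58 and 7.82 in STZ-O livers and 9.08, 8.34 and 8.09 in CB-O livers, a difference of -0.16 ± 0.29. STZ-O replicate 3 was lowest for both. Nsdhl and Ebp, a dehydrogenase and an isomerase of the sterol ring, both differed by -0.04. Sc5d, the sterol C5 desaturase, was the 1 enzyme with a difference above 0, at 0.09 ± 0.19, with 10.46, 10.56 and 10.04 in STZ-O livers and 10.62, 10.25 and 9.91 in CB-O livers.

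**Figure D2:**
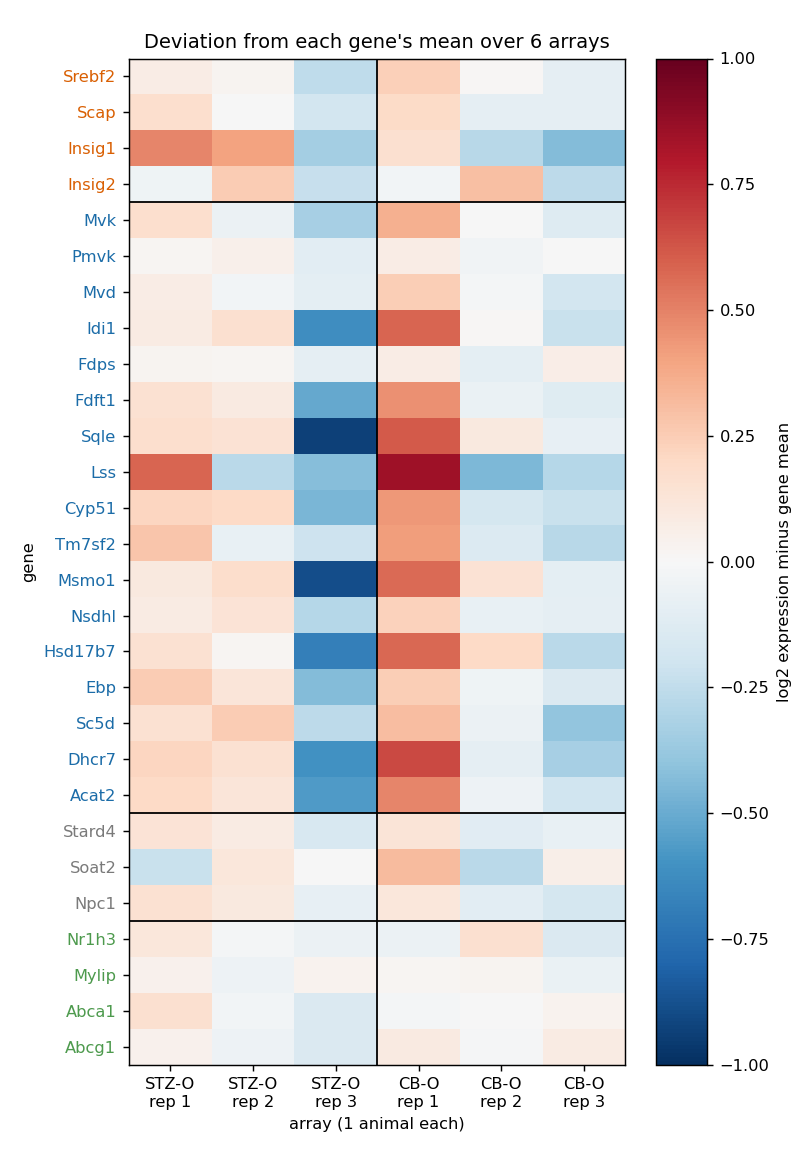
Each row is a gene and each column 1 liver, STZ-O left of CB-O; colour gives the deviation in log2 units from the gene's mean over the 6 arrays. Most synthesis enzymes are high in CB-O replicate 1 and low in STZ-O replicate 3, while the 4 listed LXR genes vary little.

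Npc1, which moves cholesterol out of lysosomes, had 9.27, 9.22 and 9.04 in STZ-O livers and 9.24, 9.02 and 8.94 in CB-O livers, a difference of 0.11 ± 0.10 (limma adjusted p = 0.976). Stard4, a cytosolic sterol carrier, had 8.55, 8.49 and 8.26 in STZ-O livers and 8.54, 8.30 and 8.34 in CB-O livers, a difference of 0.04 ± 0.10. The groups overlapped for both. Soat2, the hepatocyte enzyme that esterifies cholesterol, had 8.30, 8.64 and 8.52 in STZ-O livers and 8.84, 8.25 and 8.58 in CB-O livers, a difference of -0.07 ± 0.15, with the highest and the lowest value both among CB-O livers.

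None of the 4 listed LXR genes differed beyond its spread. Nr1h3, the alpha form of the receptor, had 9.52, 9.39 and 9.35 in STZ-O livers and 9.35, 9.57 and 9.27 in CB-O livers. Abca1, the exporter that loads cholesterol onto apolipoprotein A-I, had 9.48, 9.29 and 9.17 in STZ-O livers and 9.30, 9.32 and 9.35 in CB-O livers. Its 3 CB-O values fell inside the STZ-O range, with a difference of -0.01 ± 0.08 (limma adjusted p = 0.997). Abcg1, an exporter to high-density lipoprotein, had 7.09, 6.99 and 6.90 in STZ-O livers and 7.13, 7.03 and 7.13 in CB-O livers, a difference of -0.10 ± 0.07 (limma adjusted p = 0.957). Mylip, the LXR-induced ligase, differed by 0.02 ± 0.06. Mylip and Abcg1, 2 of the 3 LXR targets, had means under 8.26, where changes can be compressed, so little can be read from that list's size. The median difference was -0.06 over the 20 measured SREBP2 targets and -0.0075 over the 3 listed LXR targets, which leave out the LXR-induced exporters Abcg5 and Abcg8 given below, and the SREBP2 value became 0.06 without STZ-O replicate 3.

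What set the synthesis enzymes apart from most of the array was their spread between animals of the same group. The median SD within groups, on the log2 scale, was 0.34 over the 17 enzymes, 0.08 over the LXR targets and 0.09 over all genes. The enzymes' SD exceeded the 90th percentile of all genes for 14 of 17, and for 0 of 4 LXR genes. Among genes with a mean above 8.26 the same held for 11 of 12 enzymes, so the wide spread was also seen against genes of like brightness.

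Between the lowest and the highest of the 6 livers, Sqle spanned 2.92-fold, Msmo1 2.73-fold, Lss 2.46-fold, Dhcr7 2.40-fold, Hsd17b7 2.39-fold, Idi1 2.30-fold and Acat2 2.08-fold. These 7 of 17 enzymes spanned more than 2-fold, as did 0.833% of all genes. The median span was 1.86-fold over the enzymes, 1.20-fold over the 4 LXR genes and 1.19-fold over all genes. Pmvk and Fdps, at 1.13-fold each, were the narrowest enzymes.

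**Figure D3:**
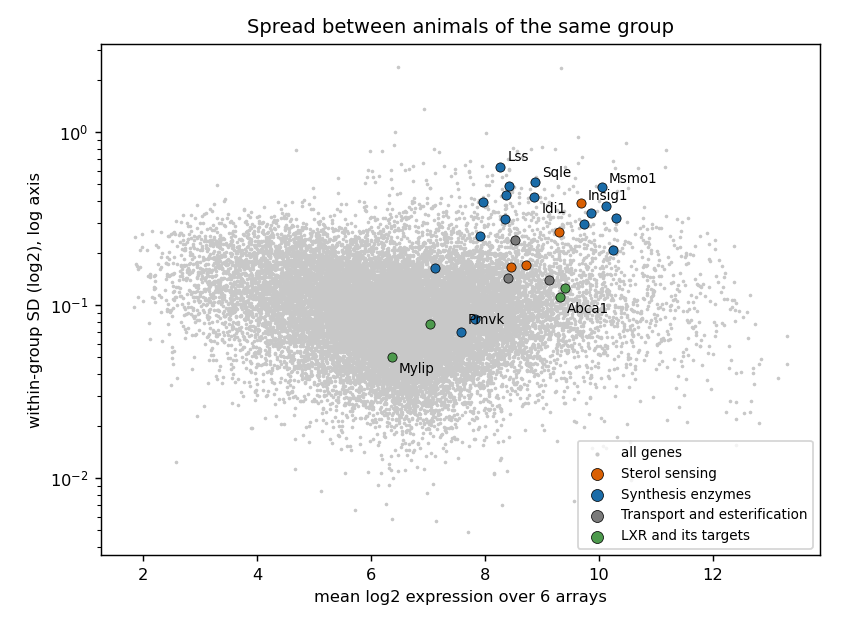
Each point is a gene, with mean log2 expression over 6 arrays on the x axis and the within-group SD in log2 units on a log y axis. Of the synthesis enzymes 14 of 17 sit above the 90th percentile, with Lss at 0.63, and the LXR genes lie within the bulk of all genes.

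The same livers stood at the ends for most enzymes. CB-O replicate 1 was highest for 16 of 17 enzymes, against 18.3% of all genes, and STZ-O replicate 3 was lowest for 12 of 17, against 19.7% of all genes. The mean deviation of the 17 enzymes from their own means, called the synthesis level below, was 0.17, 0.07 and -0.44 in STZ-O livers and 0.42, -0.05 and -0.18 in CB-O livers. The range of 0.86 equals 1.82-fold, and the groups overlapped. In both groups the level fell from replicate 1 to replicate 3, and the labels do not say what these numbers stand for. The mean deviation of the LXR targets ran between -0.09 and 0.08 in STZ-O livers and between 0.0037 and 0.03 in CB-O livers. STZ-O replicate 3, lowest in synthesis level, was also the liver with the low Kupffer cell and endothelial sums, at mean deviations of -0.43 and -0.33; their part in the result was not tested.

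The enzymes varied together over the 6 livers. All 136 pairs of enzymes had a positive Pearson r, with a median of 0.88 and a lowest value of 0.32, and 70.6% of pairs exceeded 0.8, where 3.1% of all gene pairs did. The points share their arrays and the common scaling, so these values are a description.

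Srebf2 tracked them. Over the 27 other members, Pearson's r with Srebf2 was above 0.9 for 11 genes, all enzymes, where 1.78% of all genes passed that mark. The median r over the 17 enzymes was 0.94. Acat2 had r = 0.99 and Spearman's rho = 1 with Srebf2 (exact permutation p = 0.00139, the smallest that 720 orders allow, and 0.409 after Benjamini-Hochberg adjustment over 22092 genes). Fdft1 had r = 0.99 and rho = 1 (exact permutation p = 0.00139), and Idi1 r = 0.99 and rho = 0.94 (exact permutation p = 0.00417). By exact permutation, 15 of 17 enzymes had an unadjusted p under 0.05 for r, where 7.93% of all genes did, and 13 for rho, where 5.4% did; none passed after adjustment over all genes.

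Ranked by r over all genes, 8 enzymes were among the 100 genes most like Srebf2; with Mvk in its place, 1 of the 16 other enzymes was among the 100 most like it, 8 of 16 had r above 0.9 and the median was 0.90. With the livers farthest from the Srebf2 median left out (STZ-O replicate 3 and CB-O replicate 1), the enzymes' median r was 0.88. Of the 17, 5 exceeded 0.9, where 6.02% of all genes did. Fdps turned to -0.33 and Pmvk fell from 0.89 to 0.25. With each group's mean removed, the enzymes' median r was 0.97. Lss, at r = 0.79, and Fdps, at 0.58, followed Srebf2 least among the enzymes. Outside synthesis, Scap had r = 0.90 (rho = 1, exact permutation p = 0.00972), Stard4 0.82, Abcg1 0.71 and Npc1 0.67 with Srebf2, so the co-variation was not confined to the enzymes. Abca1 had r = 0.50 (rho = 0.31, exact permutation p = 0.294), Insig2 0.42, Soat2 0.30, Nr1h3 0.25 and Mylip 0.08 with Srebf2. Without STZ-O replicate 3 and CB-O replicate 1, r was -0.49 for Abcg1, 0.43 for Abca1, 0.80 for Nr1h3, 0.74 for Mylip and -0.51 for Soat2. Scap then had 0.77, Stard4 0.69 and Npc1 0.87. Which LXR genes followed Srebf2 thus depended on those livers.

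**Figure D4:**
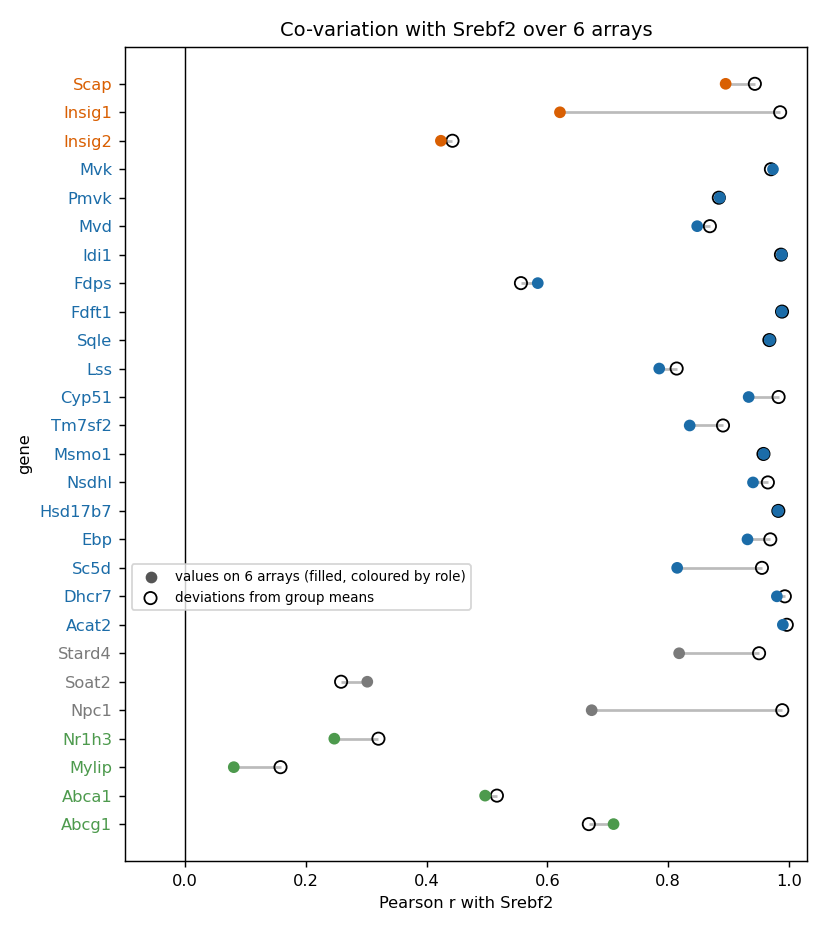
The x axis gives each gene's Pearson r with Srebf2 over the 6 arrays (filled points) and with each group's mean removed (open circles), and the y axis lists 27 genes by role. Most enzymes lie near the right edge, with a median of 0.94, and the LXR targets have a median of 0.50.

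Because these genes varied together, promoters of 4 members are shown, taken from RefSeq (GRCr8, 250 bases before to 50 after the start, in the direction of transcription). They are those of Srebf2 (chr7:115543057-115543356, plus strand), of Idi1 and Msmo1, which spanned more than 2-fold (chr17:66547475-66547774, minus strand, and chr16:29746863-29747162, plus strand), and of Insig1, which departed from them (chr4:8057720-8058019, minus strand). Capitals mark CCAAT, the box read by NF-Y, GGGCGG, the box read by Sp1, each on either strand, and in Srebf2 also ATCACCCCA.
Srebf2: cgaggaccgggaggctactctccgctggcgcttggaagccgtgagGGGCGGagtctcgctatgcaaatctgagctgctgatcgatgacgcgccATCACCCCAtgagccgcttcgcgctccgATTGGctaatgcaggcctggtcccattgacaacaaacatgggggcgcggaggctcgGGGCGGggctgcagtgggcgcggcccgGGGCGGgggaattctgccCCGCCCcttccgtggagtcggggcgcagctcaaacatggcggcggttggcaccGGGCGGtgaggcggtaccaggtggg
Idi1: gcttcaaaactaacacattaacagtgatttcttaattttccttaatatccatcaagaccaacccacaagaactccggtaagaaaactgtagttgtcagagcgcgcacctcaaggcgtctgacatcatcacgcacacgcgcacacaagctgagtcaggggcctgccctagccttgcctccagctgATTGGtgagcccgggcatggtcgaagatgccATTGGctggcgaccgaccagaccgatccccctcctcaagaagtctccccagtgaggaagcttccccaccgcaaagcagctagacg
Msmo1: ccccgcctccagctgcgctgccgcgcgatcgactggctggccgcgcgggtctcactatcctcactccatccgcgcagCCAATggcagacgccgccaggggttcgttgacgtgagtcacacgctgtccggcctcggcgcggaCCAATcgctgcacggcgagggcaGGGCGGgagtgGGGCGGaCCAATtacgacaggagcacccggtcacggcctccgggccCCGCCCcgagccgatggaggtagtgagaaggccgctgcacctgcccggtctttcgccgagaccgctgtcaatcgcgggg
Insig1: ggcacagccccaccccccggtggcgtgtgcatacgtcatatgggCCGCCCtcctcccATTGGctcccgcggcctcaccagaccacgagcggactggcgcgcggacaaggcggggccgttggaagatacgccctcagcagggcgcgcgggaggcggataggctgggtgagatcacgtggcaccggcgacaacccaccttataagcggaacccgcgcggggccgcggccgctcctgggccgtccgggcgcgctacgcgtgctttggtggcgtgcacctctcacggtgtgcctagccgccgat

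NF-Y and Sp1 are known partners of SREBP2 at sterol-regulated promoters. Promoters were found for 23 of the 29 listed genes, out of 33469 in all. On either strand, CCAAT occurred in 16 of 23 (69.6%) against 37.5% of all promoters, and GGGCGG in 19 of 23 (82.6%) against 33.1%. The classic sterol regulatory element occurred in 0 of 23 and in 0.125% of all promoters; its leading 9 letters, searched after the sequences were seen, occurred in Srebf2 alone among members, 157 bases before the start, and in 0.245% of all promoters. The perfect LXR direct repeat with a 4-base spacer occurred in 0 of 23 and in 0.00598% of all. Every motif was counted whether or not it overlapped another. A match is a description of letters, not of a bound site. Only the exact letters were searched, so elements that differ by a letter were not counted, and 0 of 23 does not show that they are absent. The shares over all promoters were not matched for base composition.

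Insig1 varied with the enzymes within each group, and its STZ-O values were higher for their synthesis level, by a difference that did not pass the test. Its Pearson r with Srebf2 was 0.62 over the 6 livers (rho = 0.77, exact permutation p = 0.199) and 0.99 with each group's mean removed. Subtracting the synthesis level left Insig1 0.32, 0.33 and 0.10 above its own mean in STZ-O livers, against -0.26, -0.23 and -0.25 in CB-O livers. The groups then lay apart. So they did for 0.837% of all genes after the same subtraction, against 10.1% before it. Subtraction adds the level's overlapping pattern to genes that do not follow it, so that share does not measure how rare Insig1 is. In limma with the synthesis level as a covariate, fitted over all genes, Insig1 differed by 0.52 ± 0.07, with an unadjusted p of 0.000155 and an adjusted p of 0.227.

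That p does not pass, 6.18% of all genes had an unadjusted p under 0.05 in the same fit, and the covariate was chosen after the values were seen. Leaving out each liver gave 0.47 to 0.57, with limma adjusted p-values of 0.278 to 0.619. With Srebf2 as the covariate the value was 0.60 ± 0.07 (limma adjusted p = 0.255). In the fit with the synthesis level, the other members with an unadjusted p under 0.05 were Npc1, at 0.17 ± 0.06 (limma adjusted p = 0.721), and Sc5d, at 0.22 ± 0.09 (limma adjusted p = 0.796). Msmo1, at -0.22 ± 0.11, and Sqle, at -0.21 ± 0.10, did not reach that; these 2 and Sc5d are among the enzymes averaged in the covariate. Npc1 was also the member most like Insig1 over the 6 livers, at r = 0.96 and rho = 0.89 (exact permutation p = 0.0222, adjusted over all genes 0.948). Its r was 0.98 without STZ-O replicates 1 and 2, where Tm7sf2 and Mvd had higher values, and 0.95 with each group's mean removed, where several enzymes, Sqle at 0.995 among them, had higher values.

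**Figure D5:**
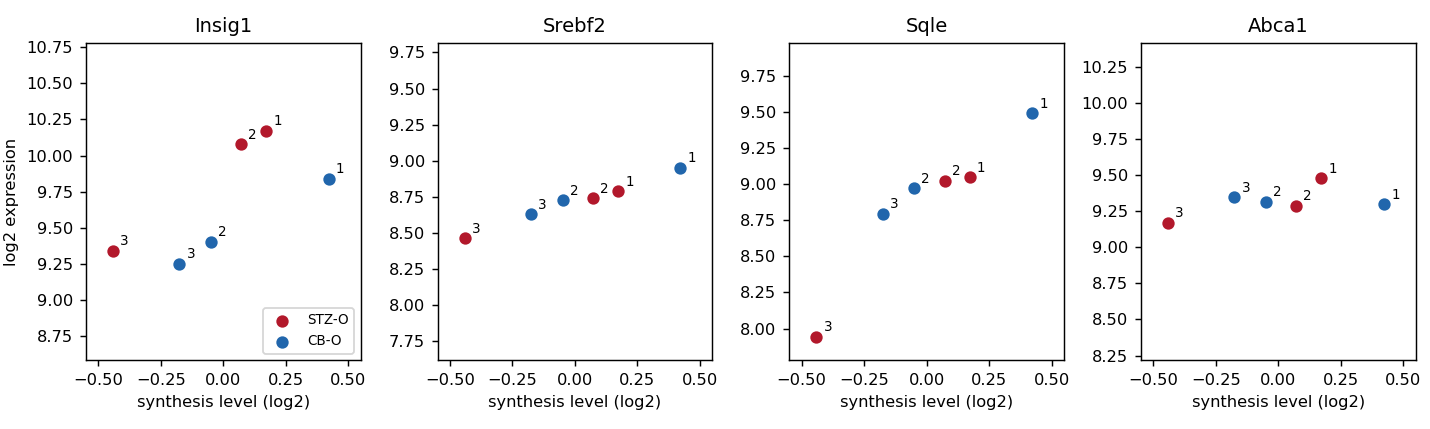
The panels set the log2 expression of Insig1, Srebf2, Sqle and Abca1 (y axis) against the synthesis level in log2 units (x axis), with 1 point per liver, numbered by replicate and coloured by group. STZ-O replicates 1 and 2 lie above all CB-O livers for Insig1; Sqle is 1 of the enzymes averaged on the x axis.

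Of 48 further genes of sterol handling, 42 were measured, 24 with a difference above 0 and 18 below, with a median of 0.0047; limma called none at an adjusted p of 0.05 and 2 at an unadjusted p of 0.05. Those 2 of 42 are no larger a share than the 5.68% of all genes. The 3 STZ-O values lay wholly apart from the 3 CB-O values for 4 of the 42 (Abcg5, Scd, Acat1 and Dhdds), where they did for 10.1% of all genes. Abcg5, an LXR-induced part of the transporter that secretes sterols into bile, had log2 levels of 7.60, 7.30 and 7.44 in STZ-O livers, against 8.02, 7.92 and 7.75 in CB-O livers. Its groups did not overlap, and the difference of -0.45 ± 0.10 did not pass (limma adjusted p = 0.532). Its partner Abcg8, also LXR-induced and chosen after its values were seen, differed by -0.23 ± 0.12 (limma adjusted p = 0.917). Both had means under 8.26. Scd, the desaturase that makes oleate for cholesterol esters and triglycerides, differed by 0.55 ± 0.18 (limma adjusted p = 0.786), and its probe set may share hybridisation with relatives. Srebf1, the sister gene of Srebf2 that drives fatty acid synthesis, differed by 0.01 ± 0.11.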

How the data were processed

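Liver RNA of 3 STZ-O and 3 CB-O rats, 1 per litter, was hybridised to 1-colour Affymetrix rat transcriptome arrays. The authors deposited log2 values for 70580 probe sets, made with Affymetrix Expression Console 1.4.1 and RMA per the submitters' processing notes; RMA evens out array brightness and compresses changes of dim probe sets. Neither the annotation nor the genome build is stated in the labels, and the number of arrays limits precision.

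After 1738 control probe sets were left out, 68842 remained. Of these, 23446 had 1 gene symbol, 505 several and 44891 none in the platform annotation; 22076 were matched to RefSeq by Entrez identifier. Each of 22093 genes took its brightest probe set. STZ-O minus CB-O was tested with limma 3.58.1 (lmFit, eBayes, two-sided) in R 4.3.3 without covariates, Benjamini-Hochberg adjusted over all genes. Each p-value sets a difference against the spread between 3 livers per group, which limma draws toward the spread of all genes. For widely varying genes the moderated SE is thus smaller than their own spread alone would give. Correlations over the 6 arrays used exact two-sided permutation of 720 orders. Hmgcs1, the planned reference for co-variation, was not analysed here, so Srebf2 was used, a choice made after seeing the data, with Mvk as a further alternative. The script was tested on simulated data. All members are described, and of other pathway genes those at an unadjusted p under 0.05 are named. Srebf1, Abcg8, Acat1, Cyp7b1, Ggps1, Dhdds, Alb, Marco, Clec4g, Ddx3y, Dbp, Nr1d1, Per2 and Per3 were named after their values were seen. So were G6pc1, Igfbp1, Pck1, Pdk4, Pklr, Fasn and Acly. Members and lists were chosen with earlier results of these data known. Alternatives were leaving out each array, a replicate block, intensity trend, array weights, quantile or median scaling, dim genes left out, probe set means and a Y-linked covariate.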

Additional observations from a re-analysis of the deposited data

How the results depend on the processing

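No alternative gave a member an adjusted p under 0.05. Leaving out each liver in turn moved the count of members higher in STZ-O between 4 and 20 (6 with all livers; 20 without STZ-O replicate 3, 18 without CB-O replicate 1), the count lower between 8 and 24, the count at an unadjusted p under 0.05 between 0 and 1, and the LXR target median between -0.0912 and 0.00495, the low end without STZ-O replicate 1. The count higher was 12 with array weights and 12 when the Y-linked level entered as covariate. The labels give no pairing. Over all genes, deviations in livers of the same replicate number correlated at r = 0.15, -0.17 and 0.10. The synthesis level nevertheless fell from replicate 1 to replicate 3 in both groups. With the replicate block the SE of Hsd17b7 was 0.076 in place of 0.26, and that of Lss 0.098 in place of 0.37. That of Soat2 was 0.16 in place of 0.15. With that block, 4 members had an unadjusted p under 0.05 (Hsd17b7, Insig1, Msmo1 and Sqle, lowest limma adjusted p 0.559), where 5.93% of all genes did. Differences changed sign with array weights for Scap (0.0094), Cyp51 (0.0395), Tm7sf2 (0.0192), Ebp (0.0236), Insig2 (0.0595) and Abca1 (0.0070), with median centring for Tm7sf2 (0.0024), and with the Y-linked covariate for Scap (0.0258), Lss (0.0744), Cyp51 (0.0600), Tm7sf2 (0.0552), Nsdhl (0.0023), Ebp (0.0097), Nr1h3 (-0.00089) and Soat2 (0.0025). Leaving out 1 liver turned the sign of 19 members, with these lowest and highest values: Scap -0.096 to 0.082, Pmvk -0.058 to 0.019, Mvd -0.13 to 0.085, Fdps -0.086 to 0.0087, Fdft1 -0.30 to 0.032, Lss -0.39 to 0.33, Cyp51 -0.14 to 0.20, Tm7sf2 -0.14 to 0.20, Nsdhl -0.12 to 0.088, Ebp -0.17 to 0.17, Sc5d -0.080 to 0.27, Dhcr7 -0.36 to 0.13, Insig2 -0.15 to 0.14, Stard4 -0.019 to 0.13, Acat2 -0.30 to 0.081, Nr1h3 -0.035 to 0.11, Mylip -0.014 to 0.044, Abca1 -0.091 to 0.064, Soat2 -0.22 to 0.068. The cause was not tested. Srebf2, Mvk, Idi1, Sqle, Msmo1, Hsd17b7, Insig1, Abcg1 and Npc1 kept their sign in every fit run. For some of them the sign was kept only near 0. Without STZ-O replicate 3, Idi1 was -0.00056, Srebf2 -0.0054 and Sqle -0.050. Without CB-O replicate 1, Mvk was -0.0072, and without CB-O replicate 3, Npc1 was 0.050. Signal may limit the 7 members with means under 8.26.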

Other observations

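Other branches that leave the same pathway were also measured, and are given here as values chosen after they were seen. Cyp7b1, the oxysterol hydroxylase of the acidic bile acid route, had log2 levels of 8.39, 7.56 and 7.55 in STZ-O livers, against 7.66, 7.29 and 6.60 in CB-O livers. STZ-O replicate 1 was highest and CB-O replicate 3 lowest, the groups overlapped, and the difference of 0.65 ± 0.30 did not pass (limma adjusted p = 0.896). Ggps1, which makes geranylgeranyl diphosphate, differed by 0.17 ± 0.09 (limma adjusted p = 0.925). Dhdds, a subunit of the enzyme that makes dolichol precursors, had 8.12, 8.07 and 8.05 in STZ-O livers and 8.18, 8.30 and 8.13 in CB-O livers. Its groups did not overlap, as was so for 10.1% of all genes, and the difference of -0.12 ± 0.06 did not pass (limma adjusted p = 0.917).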
